A study of Sus scrofa with 8 samples.

Results

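MYH7 and CRYAB are a pair of genes best known from striated muscle that were measured here in pig backfat, and they are 2 of the 458 genes for which the deposited data give a value in each pig. They were taken as the rows whose name equals MYH7 or CRYAB, and both have such a row. The 458 genes are those that the authors called differentially expressed between the breeds in these same pigs, so that tests on them describe how far the pigs lie apart and are not independent evidence of a difference. Dorsal subcutaneous fat was sampled at slaughter from 4 Alentejano (AL) and 4 Bisaro (BI) pigs, purebred castrated males that were kept free ranged under the same conditions and fed commercial diets to a labelled carcass weight of 150 kg, and 1 stranded mRNA library was sequenced per pig. The study describes the pigs as adult and the AL pigs as having been on trial for longer than the BI pigs. Ages were not used here, and each breed is represented by 4 animals of 1 trial.

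MYH7 encodes the heavy chain of the slow, beta type of myosin, the motor of the thick filament in slow skeletal muscle fibres and in the ventricle of the heart. CRYAB encodes alpha B-crystallin, a small heat shock protein that holds unfolding proteins in solution, protects desmin filaments and the Z-disc of muscle, and is also made in the lens, in brain and in fat. MYH7 is a gene of muscle that fat is not expected to use, whereas CRYAB is expressed well beyond muscle. In bulk tissue, fewer cells of a type and less RNA per cell cannot be told apart.

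The unit throughout is the normalized count, the number of reads counted on a gene divided by the size factor of that pig, both made by the authors. Within a pig, 100% of the values were whole multiples of what 1 read is worth (to within 0.05 of a read), which gives the reads behind each value. The size factors recovered lay between 0.675 and 1.1 in AL and between 1.06 and 1.46 in BI (exact permutation p = 0.0571 for their difference, whose part in the results was not tested), and the 458 genes held 359708 to 883622 reads in a pig. Differences were computed as the log2 fold change (log2 FC), the mean log2(normalized count + 1) of AL minus that of BI. A positive log2 FC is thus higher in AL, and the pseudocount shrinks it for a gene with as few counts as MYH7. All 70 ways to split the pigs into 2 sets of 4 were used for a two-sided exact permutation test, which cannot give a p below 0.0286. With 1 pig left out 35 splits remain, the lowest p is again 0.0286 and the next is 0.0571. Breeds that do not overlap cannot come to overlap when a pig is left out, so that a p of 0.0571 there is no sign of overlap. Of the 458 genes, 364 (79.5%) had breeds that did not overlap, 221 of them (48.3%) higher in AL and 143 (31.2%) higher in BI. This balance was 102 against 171 after the values of the 458 genes were rescaled by a median of ratios, and 60 against 176 after rescaling by their upper quartile.

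The row that the authors name MYH7 carries the identifier ENSSSCG00000002029, which the gene name table used here pairs with MYH6, the alpha type of cardiac myosin heavy chain. In the RefSeq annotation of Sscrofa11.1, MYH7 lies on chromosome 7 from 75650841 to 75672908 on the forward strand, and a second gene named LOC100736765 follows on the same strand from 75677666 to 75704486. Of the 5958 windows of 76 bases, the length of the reads, in the MYH7 transcript, 1596 (26.8%) occur letter for letter in the transcripts of LOC100736765. The longest run that a coding exon of each gene shares is 374 bases, from 75665723 to 75666096 in MYH7. The last 120 bases of that exon are shown for both genes to let a reader see how little separates them, with the bases that differ in capitals, 1 in all.
MYH7, chr7:75665993-75666112, forward strand: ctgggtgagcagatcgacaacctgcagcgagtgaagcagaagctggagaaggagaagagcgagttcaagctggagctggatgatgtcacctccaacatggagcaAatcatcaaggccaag
LOC100736765, chr7:75695662-75695781, forward strand: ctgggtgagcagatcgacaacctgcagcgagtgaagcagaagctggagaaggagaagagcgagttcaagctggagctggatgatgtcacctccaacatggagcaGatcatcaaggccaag
A read inside such a stretch fits both genes, and which of the pair the counted reads came from is uncertain.

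CRYAB (ENSSSCG00000036724) is a gene of the reverse strand of chromosome 9 (Sscrofa11.1, 39638505 to 39643530). Its 3 coding exons hold 528 bases and encode 175 residues. On the forward strand, C11orf1 runs from 39629921 to 39641769 and HSPB2, another small heat shock gene, from 39640117 to 39644104, so that both overlap with CRYAB. Most of the coding bases, 289 of 528, lie under an exon of a gene on the other strand. Coding exons 2 and 3 are shown in the direction of the CRYAB mRNA because one lies wholly under such an exon and the other under none, with the bases under an exon of the other strand in capitals.
Coding exon 2 of CRYAB, chr9:39640395-39640517, reverse strand: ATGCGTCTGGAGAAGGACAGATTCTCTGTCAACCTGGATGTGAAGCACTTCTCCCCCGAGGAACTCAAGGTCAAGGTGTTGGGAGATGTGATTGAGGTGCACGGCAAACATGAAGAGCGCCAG
Coding exon 3 of CRYAB, chr9:39638645-39638848, reverse strand: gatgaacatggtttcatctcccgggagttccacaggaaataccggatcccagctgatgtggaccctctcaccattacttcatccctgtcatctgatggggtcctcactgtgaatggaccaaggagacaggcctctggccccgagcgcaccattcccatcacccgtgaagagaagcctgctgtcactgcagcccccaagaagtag
The 123 bases of coding exon 2, all in capitals, lie under the first exon of HSPB2. The last exon of a C11orf1 model overlaps with the exons of CRYAB by 166 bases. Coding exon 3 lies under no exon of another gene. Over all exons, 380 of the 1234 bases of CRYAB (30.8%) lie under an exon on the other strand.

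**Figure D1:**
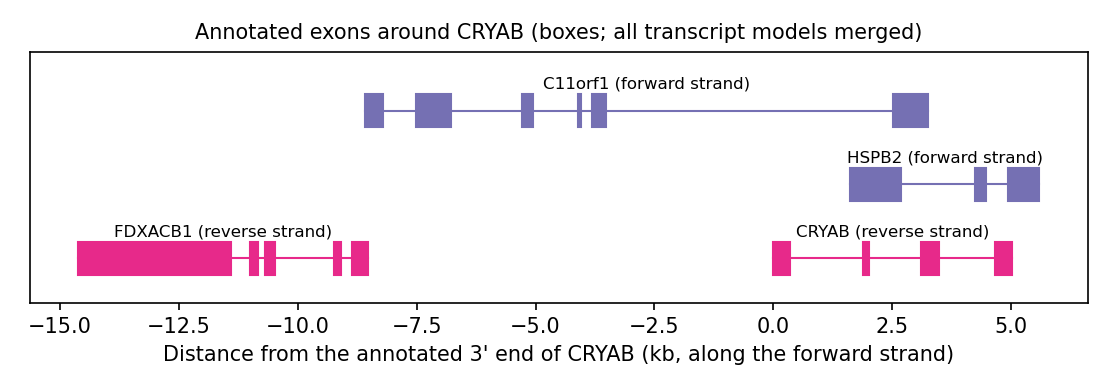
Annotated exons (boxes) of CRYAB and its overlapping neighbours in RefSeq, all transcript models merged, by distance in kb from the annotated 3′ end of CRYAB. The last exon of C11orf1 and the first of HSPB2, both on the forward strand, lie over the reverse-strand exons of CRYAB.

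MYH7 was counted in few reads in both breeds and was higher in 3 of the 4 BI pigs. The normalized counts were 5.93, 0.907, 3.23 and 9.30 in AL replicates 44, 49, 52 and 63, which rest on 4, 1, 3 and 7 reads. In BI replicates 25, 34, 36 and 37 they were 40.5, 19.9, 4.72 and 31.7, from 53, 29, 5 and 38 reads. BI replicate 36 lay among the AL pigs, below replicates 44 and 63, and the other 3 BI pigs lay above every AL pig. The BI mean of 24.2 ± 15.5 (SD, n = 4) was 5.0 times the AL mean of 4.84 ± 3.61 (SD, n = 4). With an SE of 0.83 for a log2 FC of −2.04, MYH7 missed the threshold of the exact permutation test (p = 0.0857), as the breeds overlapped.

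Single pigs decided whether MYH7 passed. Without BI replicate 36, no BI pig lay below an AL pig and the log2 FC was −2.64 (exact permutation p = 0.0286). Leaving out any other pig gave between −2.39 and −1.58 and exact p of 0.0857 or more. The smallest difference, −1.58, came without AL replicate 49, the pig with a single read. The reads of BI replicate 36 have an exact Poisson 95% interval of 1.62 to 11.7, and those of BI replicate 25 one of 39.7 to 69.3, which covers counting error only. With limma over the 458 genes, the Benjamini-Hochberg adjusted p was 0.00968 for MYH7, among genes that had been selected for a difference. The study also states a minimum number of reads per group, which the reads of MYH7 in AL do not reach. MYH7 could have met such a rule only through BI, where it is high, and its tests are not independent of that step.

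CRYAB was higher in every AL pig. The normalized counts were 379, 449, 402 and 515 in AL replicates 44, 49, 52 and 63, and 100.2, 135, 217 and 185 in BI replicates 25, 34, 36 and 37. The lowest AL pig lay well above the highest BI pig, and no pig stood apart in either breed. The mean was 436 ± 60.1 (SD, n = 4) in AL, 2.74 times the BI mean of 159 ± 52.1 (SD, n = 4). The log2 FC was 1.5 ± 0.26 (SE, exact permutation p = 0.0286, or 0.0359 after Benjamini-Hochberg adjustment over the 458 genes). With each pig left out in turn it stayed between 1.30 and 1.67, and the exact permutation p was 0.0286 in all 8 cases. Rescaling over the 458 genes, which moved the median log2 FC of all of them by −0.51 (median of ratios) or −0.64 (upper quartile), gave CRYAB 0.99 and 0.86 with breeds that still did not overlap.

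**Figure D2:**
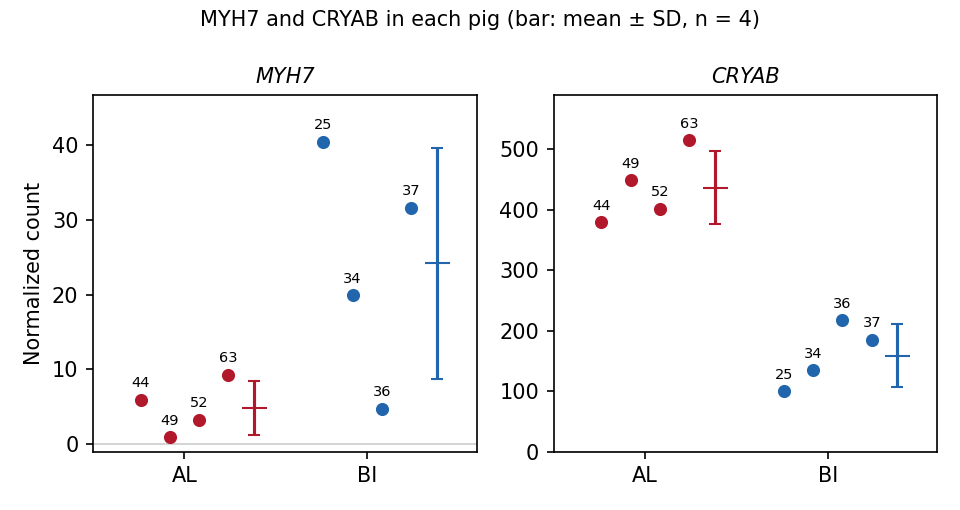
Normalized count of MYH7 and CRYAB (vertical axes, linear) in each AL (red) and BI (blue) pig, numbered by replicate, with the mean and SD of 4 pigs beside them. For MYH7, BI replicate 36 with 4.72 sits among the AL pigs, and for CRYAB the AL pigs (379 to 515) sit above the BI pigs (100.2 to 217).

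Per length, the row of CRYAB held far more counts than that of MYH7. Over the 8 pigs it averaged 241 normalized counts per kb of annotated exon, against 2.41 for MYH7. C11orf1, which lies across from CRYAB on the other strand, averaged 6077. While the strand setting of the counting is unknown, mRNA of CRYAB in its count cannot be told apart from reads of C11orf1 or HSPB2. Nor can mRNA of C11orf1 in its own count be told apart from reads of CRYAB. In the table of mean counts of 10710 genes, 996 genes have a higher mean than CRYAB and 5185 a higher mean than MYH7.

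The log2 FC of the pair had opposite signs. The number of MYH7 counts per 1000 CRYAB counts, in which the size factor of a pig cancels, was 15.6, 2.02, 8.02 and 18.0 in AL replicates 44, 49, 52 and 63. It was 405, 148, 21.7 and 171 in BI replicates 25, 34, 36 and 37. The lowest BI pig, replicate 36, exceeded the highest AL pig, replicate 63, by a small margin, and the breeds did not overlap. BI replicate 36 had 5 reads of MYH7 and 230 of CRYAB, and AL replicate 63 had 7 and 388. For MYH7 the exact Poisson intervals of these reads, 1.62 to 11.7 and 2.81 to 14.4, overlap widely. The order of these pigs is thus uncertain, and the lack of overlap and the lowest possible exact p rest on it. The difference between the log2 FC of MYH7 and of CRYAB, which carries the pseudocount of 1 and so is not quite free of the size factors, was −3.54 ± 0.98 (SE, exact permutation p = 0.0286). It was −3.85 with a pseudocount of 0.1 and −2.54 with 10. Without any 1 of the AL pigs the exact permutation p was 0.0571, the next value above the lowest, and the breeds still did not overlap. Both genes had been called in these pigs, and the ratio repeats that choice. After the mean of each breed was subtracted, the log2 values of MYH7 and CRYAB had a Pearson's r of −0.47 over the 8 pigs, and between −0.71 and −0.01 with a pig left out, which is given as a description only.

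Of 45 genes listed as typical of skeletal muscle, 4 have values per pig: MYH7, MYBPH, FBXO40 and LSMEM2. The breeds did not overlap in 3 of these, all higher in AL, against a background of 48.3% of the 458 genes, and in 0 of them were all BI pigs higher. The median log2 FC of the 4 genes was 0.96, beside 0.83 over the 458 genes. MYH7 alone among them had a negative log2 FC. A list of 4 genes that had all been called cannot be read further.

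MYBPH encodes a myosin-binding protein of the thick filament. Its normalized counts were 201, 184, 180 and 259 in AL replicates 44, 49, 52 and 63, and 78.0, 73.5, 101 and 108 in BI replicates 25, 34, 36 and 37. Every AL pig exceeded every BI pig, with a log2 FC of 1.19 ± 0.18 (SE, exact permutation p = 0.0286), or 0.54 with the upper quartile, where the breeds still did not overlap. FBXO40 encodes a muscle-enriched F-box protein that directs the insulin receptor adaptor IRS1 to degradation. In the same order of replicates, AL had 1307, 652, 532 and 614 normalized counts of it and BI had 195, 292, 406 and 453. The log2 FC was 1.18 ± 0.40 (SE, exact permutation p = 0.0286), and AL replicate 44 had far more than the other 3 AL pigs. Without that pig, or without BI replicate 25, it was 0.90 or 0.94 and missed the threshold (exact permutation p = 0.0571), though the breeds still did not overlap. It also missed the threshold when rescaled by the upper quartile (0.53, exact permutation p = 0.114). LSMEM2, a membrane protein gene on the muscle list, had between 565 and 610 normalized counts in AL and between 274 and 429 in BI. Its log2 FC was 0.73 ± 0.14 (SE, exact permutation p = 0.0286). Rescaled by the median of ratios it was 0.22 and missed the threshold (exact permutation p = 0.114).

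Set beside the other muscle genes, MYH7 ran in the other direction between the breeds and in no single direction within them. The summed normalized counts of MYBPH, FBXO40 and LSMEM2 were between 1311 and 2118 in AL and between 547 and 991 in BI. The breed with the higher mean of MYH7 thus had the lower sums. Each of the summed genes shares exon bases with a gene on the other strand. How much of their counts is muscle mRNA was not tested. Within BI, replicate 25 had the most MYH7 and the least FBXO40 and LSMEM2, whereas replicate 37, which was next in MYH7, had the most of MYBPH, FBXO40 and LSMEM2. Within AL, replicates 63 and 44 had the most MYH7 and also the most MYBPH, but with 7 and 4 reads of MYH7 the order of the AL pigs is uncertain. With the mean of each breed subtracted, Pearson's r with MYH7 over the 8 pigs was 0.14 for MYBPH, −0.14 for FBXO40 and −0.21 for LSMEM2.

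**Figure D3:**
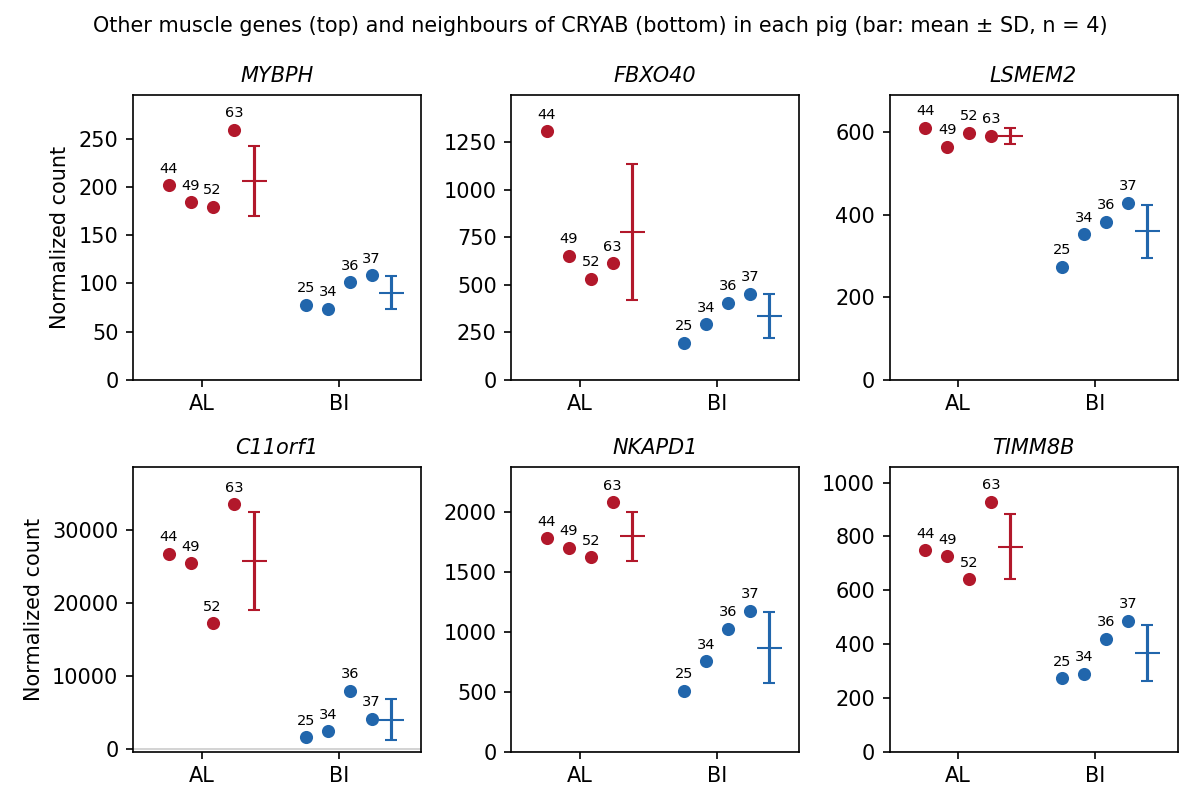
Normalized counts (vertical axes, linear) of the other 3 skeletal muscle genes (top) and of the 3 neighbours of CRYAB (bottom) in each AL (red) and BI (blue) pig, with the mean and SD of 4 pigs. In all 6 genes the AL pigs sit above the BI pigs, whereas MYH7 was higher in BI on average, with breeds that overlapped. AL replicate 44 stands high in FBXO40 with 1307.

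For traces of muscle in the fat samples, the table of mean counts over the 8 pigs was read for the same 45 genes. A row was found for 17 of them. Of the other 28, which were not analysed here, 22 have an identifier in the gene name table but no row of their own, and 6 have none in it. MYH6 is among the 22, because the row with its identifier is the one that the authors name MYH7. Of the 17 genes, 11 had a mean under 20 normalized counts, MYH7 with 14.5 among them. Skeletal alpha-actin ACTA1, a defining mRNA of muscle fibres, had a mean of 5.0, the intermediate filament gene DES had 3.07 and the regulatory myosin light chain MYL2 of slow fibres had 3.66. Of the fast troponins, TNNC2 had 17.6 and TNNT3 had 4.49, and CASQ1 had 7.18 and the muscle glycogen phosphorylase PYGM 7.35. The lowest mean in the whole table is 1.89 and the median 13.7, so that MYH7 and TNNC2 lay just above the median and the others named here below it. Of the 6 slow-fibre genes on the list, MYH7 and MYL2 had a row, and of the 11 fast-fibre genes TNNC2, TNNT3 and ATP2A1. These means are those of the authors over all 8 pigs, so that the share of muscle in single pigs was not tested.

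The other 6 genes of the 17 had means of at least 100: ENO3, the muscle enolase, had 1480, CKM, muscle creatine kinase, had 987, and the calcium pump gene ATP2A1 of fast fibres had 587. FBXO40 had 556, LSMEM2 475 and MYBPH 148. All 6 have a gene on the opposite strand within 5 kb, and in 4 of them exons of both strands overlap, by 1561 bases for FBXO40 with HCLS1, 2007 for MYBPH with ADORA1, 372 for LSMEM2 with IFRD2 and 49 for ATP2A1 with RABEP2. Of the 10 genes with lower means that could be placed, 5 have such a neighbour, and MYH7, ACTA1, DES, CASQ1 and PYGM have none. Over all 8324 genes placed, an opposite-strand neighbour within 5 kb was found for 94% of the tenth with the highest means and for 60.2% of the others, and an overlap of exons for 49.7% and 23.7%. Of the 9 adipocyte genes with means of at least 100, 6 have such a neighbour and 2 an overlap of exons. The libraries were stranded, but the strand setting of the counting is not given in the sources used here, and without it the reads of a gene and of its partner on the other strand cannot be told apart. Counting with the setting opposite to that of the library would put the reads of an abundant gene on whatever is annotated across from it, and high counts beside an opposite-strand neighbour are a pattern that such counting would give. Whether this happened was not tested, and it bears on every count given here under a gene's name, those of MYH7, CRYAB, ACTA1 and the adipocyte genes included.

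**Figure D4:**
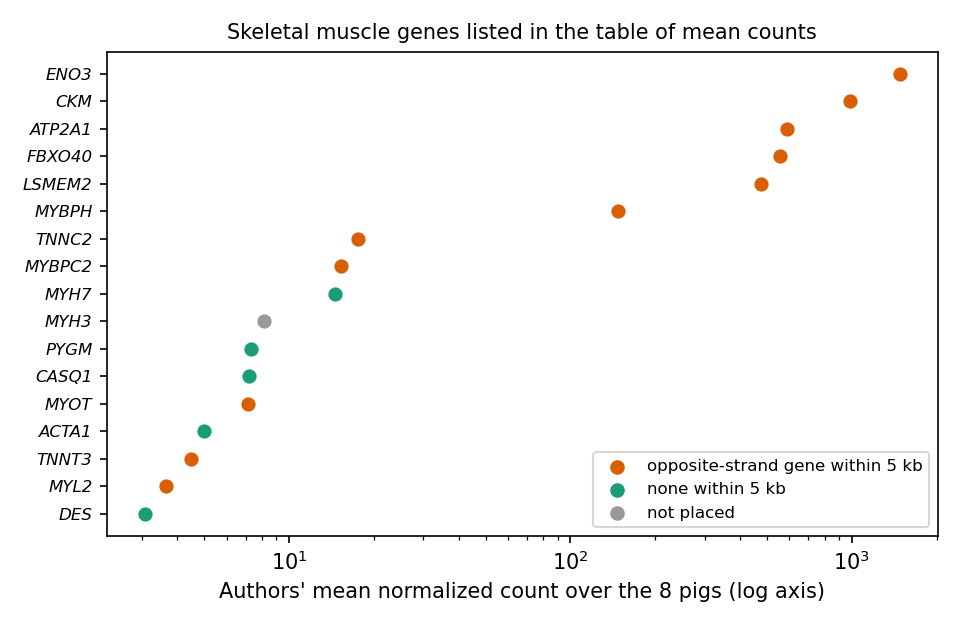
Mean normalized count over the 8 pigs, as deposited by the authors (horizontal log axis), of the 17 skeletal muscle genes with a row, coloured by whether a gene on the opposite strand lies within 5 kb. The 6 genes with means of 148 or more all have such a neighbour, whereas MYH7 (14.5), ACTA1 (5.0) and DES (3.07) have none.

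Genes of fat itself were looked up in the same way. All 12 genes listed as typical of adipocytes had a row, from a mean of 10.9 for PPARG to 1567 for the lipid droplet gene PLIN1. Of the 10710 genes, 266 had a higher mean than PLIN1, 1309 a higher mean than ADIPOQ and 6045 a higher mean than PPARG. Having a row thus says little about the level of a gene. Of the 8 smooth muscle genes, 7 had a row, from DES with 3.07 to SMTN with 81.2. The 5 adipocyte genes with values per pig all had a positive log2 FC, as had 263 of the 458 genes. The breeds did not overlap in SCD, FABP4 and THRSP, but overlapped in CEBPA and LEP (exact permutation p = 0.0571 for each), and after rescaling by the median of ratios also in FABP4 and THRSP. Their summed normalized counts were between 1748 and 2530 in AL and between 597 and 952 in BI. The sums did not overlap, and the part of adipocyte genes in the difference of either member was not tested.

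CRYAB is one of 6 chaperone genes with values per pig out of 33 listed. The breeds did not overlap in any of the 6, against 79.5% of the 458 genes, and 5 were higher in AL and 1 in BI, with a median log2 FC of 1.05 beside 0.83 over the 458 genes. HSPE1, the small partner of the mitochondrial chaperonin, reached 37, 32.6, 34.4 and 45.2 normalized counts in AL, and 5.35, 4.12, 5.67 and 18.3 in BI. Its log2 FC was 2.24 ± 0.44 (SE, exact permutation p = 0.0286). BI replicate 37 lay apart from the other 3 BI pigs. Without any 1 of the AL pigs the exact permutation p was 0.0571, with breeds that still did not overlap. TCP1, a subunit of the cytosolic chaperonin that folds actin and tubulin, had a log2 FC of 1.0, and the J-domain co-chaperones DNAJA4 and DNAJC17 had 1.1 and 0.96. These 3 overlapped when rescaled by the median of ratios, whereas CRYAB, HSPE1 and DNAJC11 did not. DNAJC11, a J-domain protein of mitochondria, was higher in BI, with a BI mean of 45.0 ± 7.81 (SD, n = 4) and an AL mean of 22 ± 4.91 (SD, n = 4). From the table of mean counts, the small heat shock genes HSPB1 and HSPB6 had means of 362 and 683 and the CRYAB co-factor BAG3 had 58.5. The other subunits of the complex of TCP1 with a row had means between 3.32 (CCT8) and 41.3 (CCT5), against 618 for TCP1. All 8 placed genes of the chaperone list with means of at least 100 have an opposite-strand gene within 5 kb, and 6 have overlapping exons. HSF1, a heat shock transcription factor and not itself a chaperone, is counted in both. Of the 16 listed genes with lower means, 9 have an opposite-strand gene within 5 kb and 2 an overlap. How much of these counts is chaperone mRNA was not tested.

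Only the 392 genes with values per pig that could be placed were searched for neighbours. Those that start within 500 kb of a member all lie near CRYAB, and none lies near MYH7. C11orf1 (ENSSSCG00000015027), whose exons overlap with those of CRYAB, had 26756, 25418, 17216 and 33511 normalized counts in AL replicates 44, 49, 52 and 63. In BI replicates 25, 34, 36 and 37 it had 1593, 2395, 7947 and 4123. The pigs fell in the same order as for CRYAB within BI, and AL replicate 63 was highest in both genes. The log2 FC of C11orf1 was 2.90 ± 0.54 (SE, exact permutation p = 0.0286), higher than that of CRYAB. With the strand setting of the counting unknown, the reads of either row may stem from a gene across from it, which was not tested. Without AL replicate 44, 49 or 63 the exact permutation p was 0.0571, with breeds that still did not overlap. CRYAB counts per 1000 C11orf1 counts were between 14.2 and 23.4 in AL and between 27.3 and 62.9 in BI, with no overlap (log2 difference −1.40 ± 0.31, SE, exact permutation p = 0.0286). The sum of both rows, an alternative chosen after the values were seen, had a log2 FC of 2.86.

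NKAPD1 and TIMM8B start 132 and 147 kb from CRYAB, face each other on opposite strands and have 3′ ends 202 bases apart. TIMM8B encodes a small chaperone of mitochondrial protein import. NKAPD1 had between 1621 and 2081 normalized counts in AL and between 509 and 1179 in BI, with a log2 FC of 1.11 ± 0.28 (SE, exact permutation p = 0.0286). TIMM8B had between 642 and 928 in AL and between 273 and 487 in BI, with a log2 FC of 1.08 ± 0.23 (SE, exact permutation p = 0.0286). All 3 neighbours of CRYAB were therefore higher in every AL pig, as was CRYAB itself and as were 48.3% of the 458 genes. The exact permutation p rose to 0.0571 for NKAPD1 without any 1 of the AL pigs and for TIMM8B without AL replicate 63. In these cases the breeds still did not overlap. Neighbouring genes of this stretch that were not called, such as FDXACB1 with a mean count of 6.36, have no values per pig here.

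The genes whose pattern over the 8 pigs was most like that of each member were found by Pearson's r of the log2 values after the mean of each breed was subtracted, as a description over 8 libraries that share their depth and scaling. For CRYAB they were PCGF2, a Polycomb protein (r = 0.99), CDK4, a kinase of the cell cycle (r = 0.96), the row named MIR1282 (r = 0.95), C11orf1 (r = 0.93) and GDF9, a growth factor (r = 0.93). All 5 were higher in AL without overlap. NKAPD1 ranked 12 and TIMM8B 39 among the other genes. The muscle genes LSMEM2 and MYBPH ranked 73 and 87 for CRYAB, and MYH7 ranked 394.

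For MYH7 the most like were LRFN4, a synaptic adhesion protein (r = 0.88), SLX1A, a subunit of a DNA nuclease (r = 0.87), the unnamed ENSSSCG00000032329 (r = 0.86), NPR3, the clearance receptor of natriuretic peptides (r = 0.85), and the unnamed ENSSSCG00000039524 (r = 0.83). LRFN4 and SLX1A were higher on average in BI, as MYH7 was, and the other 3 in AL. None of the other 3 skeletal muscle genes was among the 100 most like MYH7, the nearest being MYBPH at rank 150.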

How the data were processed

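RNA of dorsal subcutaneous fat was sequenced in 4 AL and 4 BI pigs, 1 library each. Per the labels and the methods, the authors trimmed reads with Trim Galore 0.5.0, aligned them to Sscrofa11.1 with HISAT2 2.1.0, used SAMtools 1.9, counted genes with HTSeq 0.11.1 and normalized with DESeq2. The deposited signal is the count divided by the size factor of a pig, per pig for the 458 genes they called and as a mean over the 8 pigs for 10710 genes. Columns with the authors' fold changes, standard errors and p-values were not used. The steps from reads to counts were not repeated.

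From the normalized counts, log2 FC, exact permutation p over the 70 splits, overlap of the breeds and Benjamini-Hochberg values over the 458 genes were computed. limma 3.58.1 (R 4.3.3) was an alternative. Of the 10710 genes, 8955 could be named, from the files or from a gene name table by identifier. Positions came from RefSeq on Sscrofa11.1 by symbol for 392 of the 458 genes. C11orf1 and NKAPD1 were matched to C9H11orf1 and C9H11orf57 by hand. Named genes are the members, listed genes with values per pig, genes within 500 kb, the 5 most like each member, and listed genes with a mean count. The members and lists were chosen with earlier results of these data known. The calculations were tested on simulated data. Alternatives are given in the closing section. The software was Python 3.11.15, pandas 2.3.3, NumPy 2.4.6, pysam 0.24.0, SciPy 1.17.1 and Matplotlib 3.10.9. The depth of the libraries beyond the 458 genes was not derived, and 4 pigs per breed limit the precision. Whether p-values reflect more than these animals was not tested. The sequence of 1 other coding exon of CRYAB is not reported here.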

Additional observations from a re-analysis of the deposited data

Results flagged for a closer look

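In 58 groups of 4 pigs checked, 4 had a pig whose gap to the nearest other pig took up so much of the range of its breed that chance gives it in about 1 of 20 groups (Dixon's criterion). FBXO40 had 1307 normalized counts in AL replicate 44. DNAJC11 had 56.7 and HSPE1 had 18.3 in BI replicate 37, in both genes the highest BI value. LEP, the leptin gene on the adipocyte list, had 86.0 in BI replicate 36, the pig that was lowest of its breed for MYH7. Neither MYH7 nor CRYAB had such a pig.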

How the results depend on the processing

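No paired analysis was possible because the replicate numbers are those of single animals and none is shared between the breeds. No result reversed its sign under the alternatives run. For MYH7, the log2 FC was −1.10 with a pseudocount of 10 and −2.34 with 0.1. Leaving out a pig gave log2 FC from −2.64 to −1.58. With limma, run among genes selected for a difference, the log2 FC of MYH7 stayed at −2.04 and passed the threshold. For CRYAB the difference of breed medians was 1.42 (exact permutation p = 0.0571), and leaving out a pig gave 1.30 to 1.67. With 4 pigs per breed, the exact permutation test of medians cannot give a p below 0.0571. No gene could therefore pass it, and missing the threshold there says nothing about a gene. The MYH7 to CRYAB ratio had −3.57 as a difference of medians (exact permutation p = 0.0571, the lowest possible), and −4.31 to −2.98 with a pig left out. Genes without overlap fell from 364 to 236 with the upper quartile, from 3 to 1 among skeletal muscle genes, and from 6 to 3 among chaperone genes with either rescaling. Without 1 pig these counts were 368 to 411, 3 to 4 (4 without BI replicate 36, when MYH7 no longer overlapped) and 6. Both rescalings use called genes only, more of them higher in AL than in BI. For other genes named, 425 alternative values gave 113 that no longer passed and 7 that newly passed. Of the 113, 21 were differences of medians, which could not pass. Rescaling gave 10 (median of ratios) and 11 (upper quartile), and whole reads without scaling gave 14. The rest came from leaving out 1 pig. The count model planned on recovered reads was not run. At 1 to 7 reads per AL pig, depth limits any statement on the level of MYH7 in AL.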
